A study of Rattus norvegicus with 11 samples.

Results

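In rat spinal cord, 39 of 14467 genes had all 5 libraries of the paclitaxel and sham group on one side of all 6 libraries of the naive and the stimulated groups. In 10 of these genes the sham libraries were higher than every other library, and in 29 they were lower. The genes were selected on these values: CPM, a gene's count divided by the total count of its library and scaled to 10 to the power of 6, was calculated for each library, and genes with a mean of at least 1 CPM were kept. The values were then compared as log2(CPM + 0.5). The pattern is that of a gene whose sham values differed from both other groups in the same direction. The rule did not ask how near stimulated libraries stood to naive ones. In 6 of the 39 genes the naive and stimulated libraries did not overlap. Over all 14467 genes the stimulated libraries lay above all naive ones in 19.3% and below them in 17.7%. The rule kept both groups on the same side of sham, so nothing is read from this count. Since the position of sham chose the genes, it is a description here and was not tested.

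All animals were adult male rats of 350 to 400 g, and the tissue was the ipsilateral spinal cord. For the group labelled Naive (3 libraries) the design text names neither drug nor electrode. The group labelled PTX+Sham SCS (5 libraries) received paclitaxel (PTX) and, as a sham control, the placement of a spinal cord stimulation (SCS) electrode. The drug was injected into the peritoneum on days 1, 3, 5 and 7, each time at 1.5 mg/kg. The group labelled PTX+SCS (3 libraries), called stimulated below, received the same drug and electrode and daily stimulation, at 50 Hz, 0.2 ms and 80% of MoT as the protocol writes it. Sham and naive rats therefore differed in drug and electrode together, and their parts in a difference cannot be told apart. The labels number the samples and do not say that each came from a separate rat. Titles of stimulated samples begin with S, a letter that fits sham as well, and the groups here follow the group label.

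Paclitaxel stabilises microtubules in dividing tumour cells, and it also harms the long axons of sensory neurons, which can leave tingling, cold sensitivity and pain. The first relay of these sensory signals is in the dorsal horn of the spinal cord. Spinal cord stimulation applies current near the dorsal columns and is used against neuropathic pain. The comparison of 3 groups asks which spinal transcripts differ after drug and electrode, and which of these stand at the naive level when the electrode is run.

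The table identifies genes by Ensembl ID, and 0 of its 32623 IDs were matched to a symbol. The functions of the 39 genes are therefore not described, the tissue was not checked against cell type markers, and no promoter could be tied to a member. For the same reason 4 IDs are printed, the pair with the widest gap in each direction, and the other genes are given by their rank. The gap is the distance on the log2 scale between the sham library and the other library that lie nearest to each other. Library totals ran from 17401720 to 56775931 counts in naive, from 11243288 to 22144967 in sham and from 18633243 to 29395233 in stimulated rats. The smallest and the largest library were sham 4 and naive 3.

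The pattern was rare. The 10 higher genes were 0.0691% of the genes kept and the 29 lower genes were 0.200%, or 0.270% in both directions. Of all the ways to give the sham label to 5 of 11 libraries, 2 place a gene with no group difference in this set, a share of 0.433% that corresponds to 62.6 genes, or 31.3 in each direction. The count of 39 lay below that number, with 10 against 31.3 for the higher and 29 against 31.3 for the lower genes. Genes of 1 library are not independent, so the counts are given without a test.

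The other groups stood apart far more often. Naive libraries lay above all others in 458 genes and below them in 425, and stimulated libraries lay above all others in 926 and below them in 336. For a group of 3 of 11 libraries, the share of label arrangements corresponds to 87.7 genes in each direction. The mean of the sham group lay between the means of the naive and stimulated groups in 8604 genes (59.5%), was the highest of the 3 in 2650 and the lowest in 3213. These counts come from the same libraries and were not tested against each other.

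**Figure D1:**
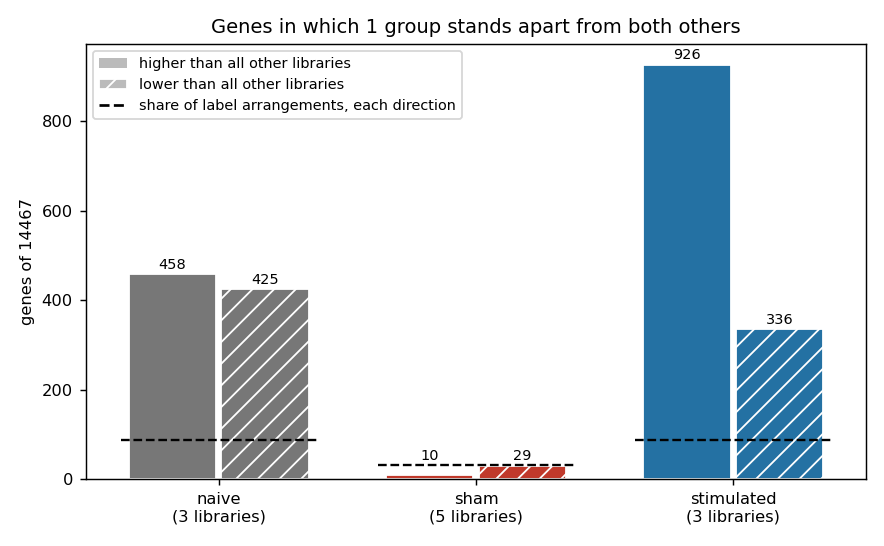
Number of genes, of 14467 with a mean of at least 1 CPM, in which all libraries of 1 group lie above (plain bars) or below (hatched bars) all other libraries. Dashed lines mark the number of genes that the share of label arrangements corresponds to in each direction: 87.7 for the naive and stimulated groups and 31.3 for sham, where the bars stand at 10 and 29.

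The balance of directions moved with the scaling of the libraries. By library totals 25.6% of the 39 genes were higher in sham. With TMM scaling (edgeR's trimmed mean of M values) 13 genes were higher and 17 lower (43.3% higher), and with median-ratio scaling (the size factors of DESeq2) 12 were higher and 17 lower (41.4% higher). By library totals the median of all genes differed by -0.01 between sham and the other 6 libraries on the log2 scale, and with TMM scaling that shift was 0.000531. The gap was smaller than the size of the shift in 14 of the 39 genes, 11 of them lower genes. The shift put sham lower, which is the direction of the lower genes and opposite to that of the higher ones. Both scalings changed the library size of sham 1 the most, by -3.42% with TMM, against -0.949% to 1.43% in the other 10 libraries. The shift is between groups, while a gap rests on a single sham library. That library was sham 1 in 3 of the 10 higher and 5 of the 29 lower genes, so the shift is only a scale for the gaps.

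A pair of lower genes stood out by size. ENSRNOG00000032708 was at 10.9, 7.31 and 12.7 CPM in naive 1 to 3, at 2.39, 1.26, 3.49, 3.65 and 4.70 CPM in sham 1 to 5, and at 19.6, 10.6 and 6.71 CPM in SCS 1, SCS 2 and SCS 5. All sham libraries lay below 5 CPM and all others above 6 CPM, with a gap of 0.47. The group means were 10.3 ± 2.7 CPM in naive (SD, n = 3), 3.10 ± 1.31 CPM in sham (SD, n = 5) and 12.3 ± 6.6 CPM in stimulated libraries (SD, n = 3). On the log2 scale the sham mean differed from the mean of the other 6 libraries by -1.72, which is 3.29-fold lower. In whole tissue, fewer cells of a type and less RNA per cell cannot be told apart.

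ENSRNOG00000000451 had nearly the same profile. Its level was 10.7, 5.71 and 11.2 CPM in naive 1 to 3, 2.08, 1.95, 3.63, 3.29 and 4.45 CPM in sham 1 to 5, and 16.4, 9.34 and 6.98 CPM in SCS 1, SCS 2 and SCS 5. The sham libraries did not overlap with the others, and sham 5 was nearest to naive 2 at a gap of 0.33. The group means were 9.21 ± 3.04 CPM in naive (SD, n = 3), 3.08 ± 1.06 CPM in sham (SD, n = 5) and 10.9 ± 4.9 CPM in stimulated libraries (SD, n = 3). The difference between sham and the other 6 libraries was 2.90-fold. With TMM scaling, median-ratio scaling and thinning of the reads the gap was 0.46, 0.47 and 0.54 for ENSRNOG00000032708 and 0.33, 0.34 and 0.12 for ENSRNOG00000000451. The thinned values come from a single random draw. Leaving out a library can only keep or widen the gap of a chosen gene, so nothing is read from it here.

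Within the groups the genes of this pair also varied more than most. Their biological coefficient of variation was 0.392 and 0.324, and 1.73% and 3.13% of the genes had a higher one. The stimulated libraries spread widely, SCS 1 against SCS 5, with 19.6 against 6.71 CPM and 16.4 against 6.98 CPM. The variation was shared: the ratio of the first gene to the second was 0.961 to 1.28 in 10 libraries and 0.645 in sham 2, where they had 20 and 31 reads. Over the 11 libraries each was the closest in profile to the other among 14466 genes (Pearson r 0.98, Spearman rho 0.98, a description that includes the group difference they were chosen by). The next closest gene had an r of 0.872 and 0.875 and did not belong to the 39. Over the 6 naive and stimulated libraries, which the difference from sham does not enter, r was 0.964. That r was computed for this pair only and not ranked among other genes, so how common such a value is was not tested. Whether the pair shares reads through similar sequence cannot be told from the IDs, and such sharing was not tested.

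**Figure D2:**
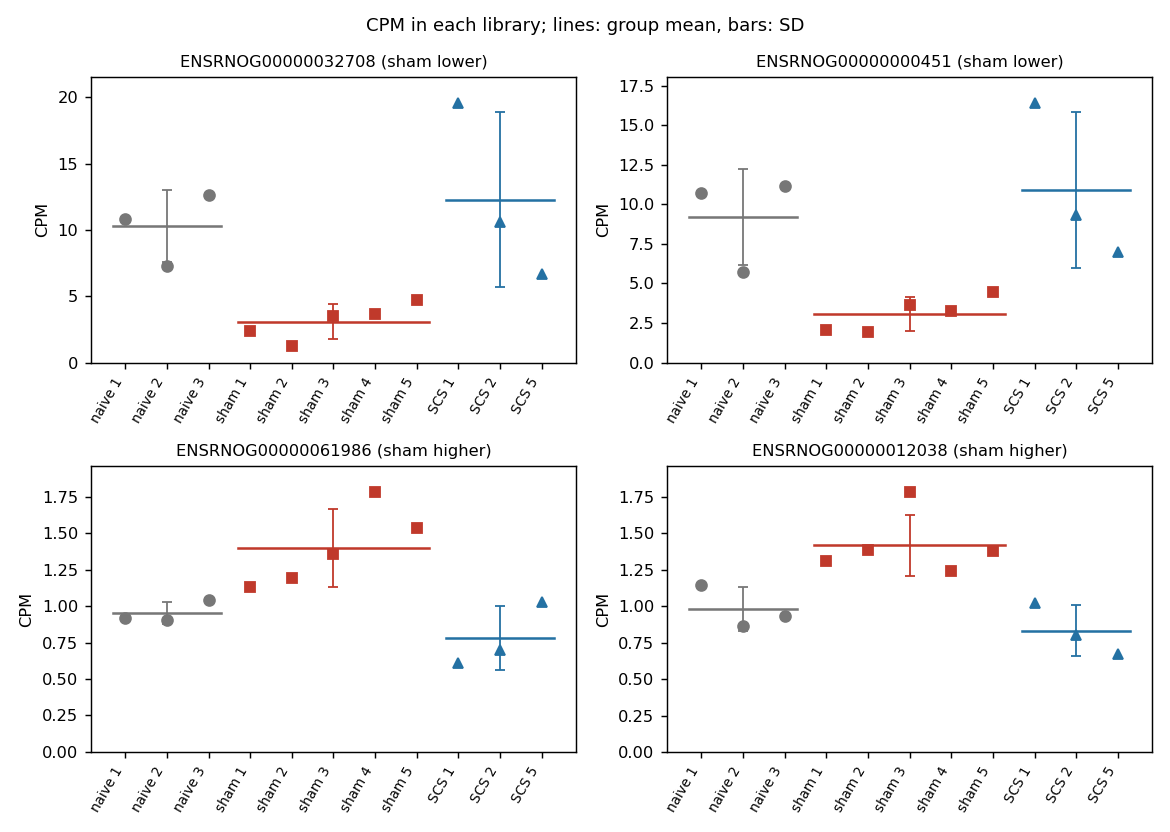
CPM of the 4 printed genes in each library (points), with the group mean (line) and SD (bar) for 3 naive, 5 sham and 3 stimulated libraries. ENSRNOG00000032708 and ENSRNOG00000000451 lie below 5 CPM in every sham library and above it in every other, with SCS 1 highest, while ENSRNOG00000061986 and ENSRNOG00000012038 lie between 0.612 and 1.78 CPM throughout.

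The other 27 lower genes differed less. The lower gene of rank 3 by gap was at 4.44 to 5.29 CPM in naive, 2.31 to 3.42 CPM in sham and 3.81 to 4.13 CPM in stimulated libraries, so the stimulated libraries lay between the other groups. Rank 4 was at 5.99 to 6.44, 4.34 to 5.28 and 5.72 to 6.23 CPM in the same order, and here naive and stimulated libraries overlapped. Rank 5 was at 6.45 to 7.76, 4.35 to 5.66 and 6.13 to 8.75 CPM, also with overlap of naive and stimulated libraries. Rank 6 had the third largest difference in level, 1.60-fold, at 2.36 to 4.06 CPM in naive, 1.51 to 2.21 CPM in sham and 2.68 to 4.15 CPM in stimulated libraries. Over all 29 lower genes the sham mean lay below the other 6 libraries with a median difference of -0.17 on the log2 scale. In 3 of the 29 the difference reached 1.5-fold, and in 9 it was under 1.1-fold.

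The higher genes had no member with a gap of 0.1. ENSRNOG00000061986 was at 0.919, 0.903 and 1.04 CPM in naive 1 to 3, at 1.13, 1.195, 1.35, 1.78 and 1.53 CPM in sham 1 to 5, and at 0.612, 0.698 and 1.03 CPM in SCS 1, SCS 2 and SCS 5. These levels rest on 13 to 59 reads per library. ENSRNOG00000012038 was at 1.15, 0.862 and 0.933 CPM in naive libraries, 1.31, 1.38, 1.78, 1.25 and 1.38 CPM in sham libraries and 1.02, 0.805 and 0.671 CPM in stimulated libraries, from 14 to 53 reads. In both genes sham lay above every other library, by a gap of 0.08. The means of ENSRNOG00000061986 were 0.954 ± 0.074 CPM in naive (SD, n = 3), 1.398 ± 0.264 CPM in sham (SD, n = 5) and 0.780 ± 0.220 CPM in stimulated libraries (SD, n = 3), and those of ENSRNOG00000012038 were 0.982 ± 0.149, 1.42 ± 0.21 and 0.832 ± 0.176 CPM. Every library was also thinned at random to 11243288 counts, in a single draw. The gap of ENSRNOG00000061986 was then -0.42 and that of ENSRNOG00000012038 was 0.00, so neither kept the pattern in that draw.

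Of the higher genes, rank 3 showed the largest difference, 1.45-fold, at 9.63 to 10.02 CPM in naive, 10.6 to 21.3 CPM in sham and 7.65 to 9.26 CPM in stimulated libraries. Sham 4, the smallest library, held its highest value. Rank 4 was at 2.64 to 3.45, 3.59 to 4.85 and 2.24 to 2.65 CPM in the same order, a 1.38-fold difference. Over all 10 higher genes the sham mean lay a median of 0.26 above the other 6 libraries, and none reached 1.5-fold. The least separated higher gene had a nearest sham value of 68.76 CPM and a nearest other value of 68.75 CPM.

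**Figure D3:**
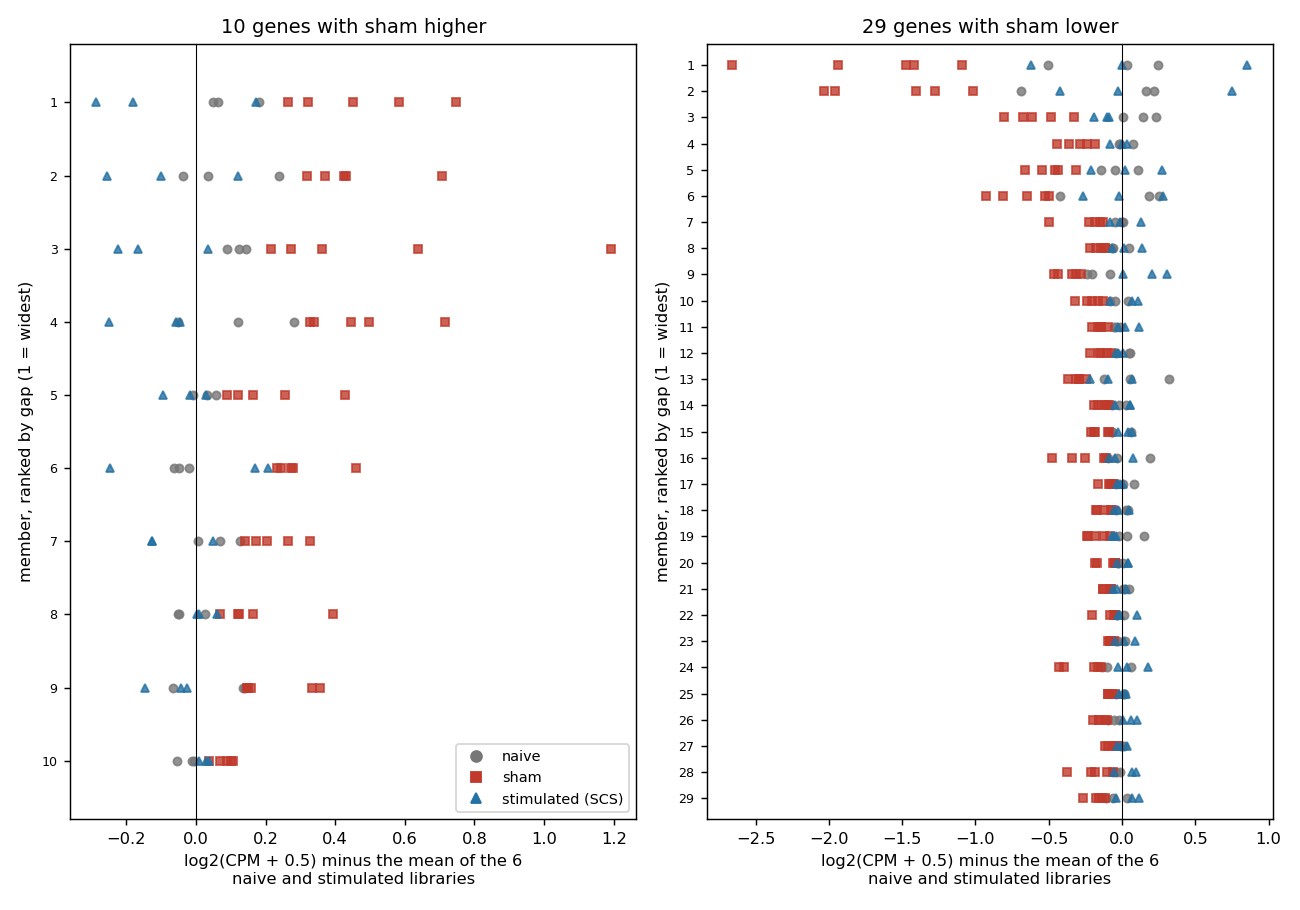
Each library's log2(CPM + 0.5) minus the mean of the 6 naive and stimulated libraries, for the 10 genes with sham higher (left) and the 29 with sham lower (right), ranked by gap from the top. Only ranks 1 and 2 of the lower genes have sham libraries more than 1 below the others' mean throughout and, of all 39 genes, only lower ranks 1 to 5 have a gap of at least 0.1.

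The libraries at the edges varied from gene to gene. The other library nearest to sham was a naive one in 24 of the 39 genes and a stimulated one in the rest. Among the 29 lower genes sham 5 lay farthest from the other groups in 13, sham 4 in 7, and sham 1, sham 2 and sham 3 in 2, 4 and 3. Among the 10 higher genes sham 4 lay farthest in 4 and sham 1 in 0.

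Most gaps, each between the closest sham and other library, were smaller than the error of counting. For each gene the standard error of the difference between its nearest sham and other library was computed from their read counts alone, which leaves out all other sources of error. The gap was under 1 such error in 37 of the 39 genes, and it was 2.73 errors for ENSRNOG00000032708 and 1.86 for ENSRNOG00000000451. Taking the closest libraries makes a gap small by choice. A gap under 1 error therefore does not say how the group means differ beside their error. In reads of the nearest sham library the gap had a median of 2.04 reads for the higher and 5.13 reads for the lower genes. The lower genes just inside the rule had gaps of 0.00116 and 0.00146, and those just outside had gaps of -0.000705 and -0.00396, where a negative gap is an overlap. For the higher genes the gaps were 0.000335 and 0.00639 just inside and -0.00626 and -0.0125 just outside. At the limit on abundance, the least abundant members had means of 1.11 CPM (higher) and 1.03 CPM (lower), and the most abundant separated genes left out had 0.776 and 0.575 CPM.

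**Figure D4:**
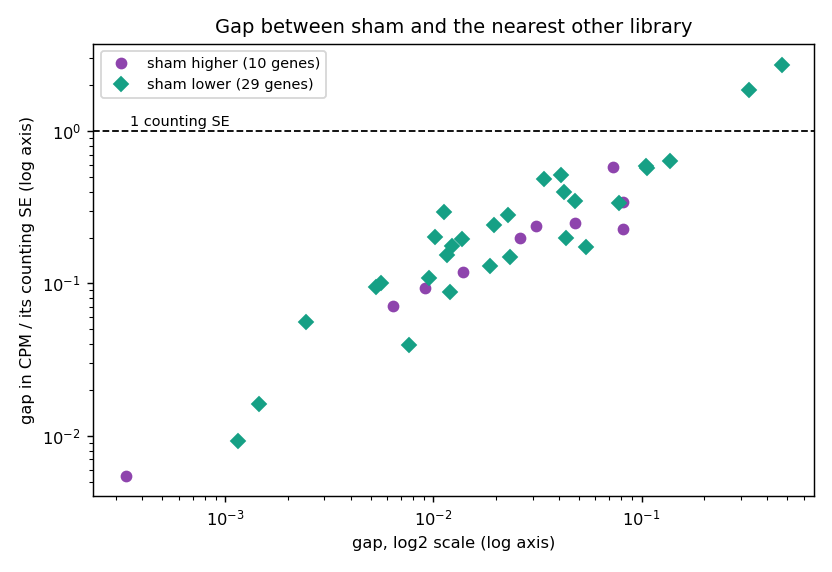
Gap between the nearest sham and other library on the log2 scale (x, log axis) against the same gap in CPM divided by its counting standard error (y, log axis) for the 10 higher and 29 lower genes. The pair at the upper right, at 2.73 and 1.86 errors, is ENSRNOG00000032708 and ENSRNOG00000000451, and the other 37 genes lie under the dashed line at 1 error.

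The difference between stimulated and naive libraries was not itself a criterion, but the rule used the values of both groups and kept them on the same side of sham. Genes with sham between these groups were thereby left out, so the counts below are descriptions and nothing is read from a low one. By edgeR's quasi-likelihood test 0 of the 39 genes passed an adjusted p of 0.05, where 14.9% of the 15758 genes tested passed (10.1% higher and 4.81% lower in stimulated libraries). At an unadjusted p under 0.05 there was 1 gene of the 39, against 29.3% of all genes. DESeq2 called 0 (16.9% of all genes) and limma-voom 1 (16.4% of all genes). The distance between the groups has error: stimulated minus naive was 0.25 ± 0.43 for ENSRNOG00000032708 (log2 fold change, SE, edgeR adjusted p = 0.747) and 0.24 ± 0.36 for ENSRNOG00000000451 (SE, edgeR adjusted p = 0.713). A stimulated level about 1.5-fold above the naive level therefore lies within 1 SE for both, and one 1.5-fold below it does not. For ENSRNOG00000061986 and ENSRNOG00000012038 the values were -0.32 ± 0.32 (SE, edgeR adjusted p = 0.548) and -0.22 ± 0.30 (SE, edgeR adjusted p = 0.678).

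The stimulated mean was lower than the naive mean in 7 of the 10 higher genes and higher in 18 of the 29 lower genes. In these genes it lay beyond the naive mean, on the side away from sham. No share of all genes with this order is given, so nothing is read from these counts. The median difference was -0.14 (interquartile range -0.19 to 0.02) for the higher genes and 0.03 (-0.03 to 0.07) for the lower genes, against -0.01 (-0.14 to 0.16) for all 14467 genes. Without SCS 1 the median of the lower genes was -0.000731, so its direction rests on that library. All stimulated libraries lay above all naive ones in 1 higher and 2 lower genes, and below them in 1 and 2. Over all genes these shares were 19.3% and 17.7%. The gene with an unadjusted p under 0.05 was rank 9 of the lower genes: it was at 4.60 to 5.17 CPM in naive, 3.85 to 4.45 CPM in sham and 5.55 to 6.92 CPM in stimulated libraries (log2 fold change of stimulated against naive 0.38 ± 0.15, SE, edgeR adjusted p = 0.107).

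The contrasts with sham chose the genes, and their calls are given only for scale. In sham against naive 0 of the 39 genes passed the edgeR test, where 0.140% of all genes passed, while 19 had an unadjusted p under 0.05, against 7.98% of all genes. DESeq2 called 3 (0.744% of all genes) and limma-voom 0 (0.127% of all genes). In stimulated against sham 5 of the 39 passed, 2 of the higher and 3 of the lower genes, where 3.57% of all genes passed. That count was 0 without sham 1, sham 2 or SCS 2 (1.12%, 1.42% and 0.224% of all genes). It was 1 without naive 3, sham 3 or SCS 1 (1.78%, 1.46% and 3.20% of all genes). Without naive 1 or naive 2 it was 3 (2.25% and 2.31%), and without sham 4 it was 4 (3.28%). It was 7 without sham 5 or SCS 5 (6.70% and 5.92%). With median-ratio scaling, limma-voom and DESeq2 it was 7, 6 and 10 (3.69%, 3.99% and 7.31% of all genes). Both contrasts share the sham libraries. The genes therefore stood apart in order, and none of them passed the adjusted threshold of the edgeR test in both steps.

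Leaving out a library loosens the rule, so counts rose by construction, and so did the number that the share of label arrangements corresponds to. Without naive 1, naive 2 and naive 3 there were 14, 16 and 27 higher and 57, 43 and 41 lower genes, against 57.4 in each direction. Without SCS 1, SCS 2 and SCS 5 there were 22, 18 and 19 higher and 52, 56 and 39 lower genes, against 57.3 to 57.4. Without sham 1 to sham 5 there were 41, 15, 40, 28 and 21 higher and 41, 47, 77, 68 and 59 lower genes, against 68.8 to 69.0. The higher count lay below that number each time, and the lower count lay above it only without sham 3.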

How the data were processed

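Poly(A)-selected RNA, 1 ug of total RNA per library, was sequenced as directional libraries, per the labels' protocols. The authors deposited 1 table of raw counts per Ensembl gene ID. HISAT2, featureCounts, DESeq2 and rn6 come from the submitters' processing notes. Their versions, the annotation and the strand setting were not given in the sources used here. Columns were matched to samples by title, leaving 17 sample columns that were not used. Counts of overlapping, antisense or near-identical genes are uncertain.

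Here CPM on library totals and a pseudocount of 0.5 gave the genes. Fits used edgeR 4.0.16 in R 4.3.3 on all 11 libraries: filterByExpr, TMM, quasi-likelihood test without covariates, Benjamini-Hochberg adjustment over 15758 genes and a threshold of 0.05. SE is the log2 fold change divided by the square root of F. DESeq2 1.42.0 and limma 3.58.1 (voom) were alternatives. The rule and the fit were also run on simulated data in which all genes had the same spread. Genes here differ in spread, so nothing is read from that run. The genes, lists and tests were chosen with earlier results of these data known. The 4 printed IDs are the 2 with the widest gap in each direction. The 44 gene lists could not be used, since 0 IDs were matched to a symbol. Libraries of 1 group differed by more than sampling noise (chi-square per degree of freedom 4.98 to 27.8). Where samples share a rat, p-values describe technical spread only.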

Additional observations from a re-analysis of the deposited data

Results flagged for a closer look

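In 5 of the 39 genes 1 sham library lay far from the other 4 by Dixon's test, where about 1 in 20 groups, or 1.95 of 39, is marked in samples of a single normal distribution. ENSRNOG00000012038, rank 2 of the higher genes, was at 1.78 CPM in sham 3 and at 1.25 to 1.38 CPM in the other sham libraries. Rank 6 of the higher genes was at 11.7 CPM in sham 5 against 9.93 to 10.3 CPM, and rank 8 was at 25.8 CPM in sham 4 against 20.5 to 21.9 CPM. Rank 7 of the lower genes was at 0.664 CPM in sham 5 against 0.903 to 0.998 CPM, and rank 22 was at 73.6 CPM in sham 4 against 80.2 to 82.3 CPM. The rule used these values and cuts off the side of each sham group that faces the other libraries, so the comparison with 1.95 is for scale only.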

How the results depend on the processing

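TMM scaling gave 17 lower genes, 16 of them among the 29, and median-ratio scaling gave 17, all among the 29. A gap of at least 0.1 left 0 higher and 5 lower genes, by construction. The single draw of thinning gave 11 higher and 24 lower genes, of which 1 and 13 belonged to the 10 and 29. Under both scalings and that draw 1 higher and 6 lower genes held. Leaving out 1 library gave 14 to 41 higher and 39 to 77 lower genes. In stimulated against naive limma-voom called 1 gene (16.4% of all genes), and each library left out gave 0 (6.38% to 17.7% of all genes). In sham against naive DESeq2 called 3 (0.744% of all genes), and each library left out gave 0 (0.0376% to 0.354% of all genes). In stimulated against sham DESeq2 called 10 (7.31% of all genes), no filter on low counts 3 (2.44%) and the fit of 2 groups only 1 (0.899%). There, leaving out 1 library gave 0 to 7 (0.224% to 6.70% of all genes). The cause was not tested. With the replicate block 0, 0 and 0 members passed in the 3 contrasts, in the same order (4.26%, 0.0571% and 0.0317% of all genes). Same-numbered libraries had deviations correlated at -0.17 to 0.13, and no pairing was assumed. The median stimulated minus naive difference of the higher genes was -0.0827 with a pseudocount of 2 and -0.14 to -0.10 with 1 library left out, and that of the lower genes was -0.000731 to 0.0465, the low end without SCS 1. ENSRNOG00000061986 stood 0.23 above the other 6 libraries after thinning. A pseudocount cannot change the order of libraries and was not varied for the choice of genes. Gene list settings were not run for want of symbols. At 13 to 59 reads per library the depth cannot resolve the higher genes near 1 CPM.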
